A study of Mus musculus with 4 samples.

Results

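The interferon regulatory factor (IRF) family was examined in leukemic mouse bone marrow with and without Hes1. Its members were taken by gene symbol from the array annotation: Irf1, Irf2, Irf3, Irf4, Irf5, Irf7, Irf8 and Irf9, which make 8 of the 19938 genes measured. All 8 had a probe set with that symbol alone, and no filter on low values was applied. The tested marrow carried the leukemia fusion gene MLL-AF9 on a Hes1-/- background (2 arrays, called Hes1-null). It was set against marrow with MLL-AF9 on a Hes1+/+ background (2 arrays, called wild type), all from the C57BL/6 strain. Hes1 is a transcriptional repressor that Notch signalling induces, and the series asks whether it carries the restraint that Notch places on this leukemia. Whole marrow was used, so host cells are measured together with leukemic cells. The labels do not give the animals' age, how MLL-AF9 was delivered, whether animals were pooled or whether the 2 samples of a genotype came from separate animals. The p-values therefore measure only the spread between these samples, which may be partly technical.

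IRF proteins share a DNA-binding domain in their first part and bind interferon-stimulated response elements, short repeats of GAAA. Irf8 and Irf4 are the blood-cell members: they bind DNA weakly alone and act with partners such as PU.1, and Irf8 directs myeloid progenitors towards monocytes and dendritic cells and away from granulocytes. Irf3, Irf5 and Irf7 are switched on by phosphorylation after pathogen sensing and induce interferon genes, Irf9 is the DNA-binding subunit of the complex that answers type I interferon, and Irf1 and Irf2 act as activator and antagonist on shared sites. Much of this control lies in the protein, which an mRNA level does not show.

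The upstream promoter sequences of the 3 members whose genotypes did not overlap are shown first, because STAT factors, IRF proteins and HES repressors bind short sites of the kinds searched here. They are from RefSeq (GRCm38.p6), each 250 bases ending just before the annotated start, written 5′ to 3′ along the gene's strand. For Irf8 and Irf1, which have several annotated starts, the most upstream one is shown. Capitals mark every match to the motifs searched in these bases.
Irf8 (chr8:120736108-120736357, plus strand): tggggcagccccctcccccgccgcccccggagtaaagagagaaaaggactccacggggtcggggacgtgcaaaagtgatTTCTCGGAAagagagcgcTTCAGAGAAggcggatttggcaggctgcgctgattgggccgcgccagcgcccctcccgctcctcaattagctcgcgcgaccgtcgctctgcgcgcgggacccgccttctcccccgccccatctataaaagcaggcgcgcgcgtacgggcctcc
Irf4 (chr13:30748983-30749232, plus strand): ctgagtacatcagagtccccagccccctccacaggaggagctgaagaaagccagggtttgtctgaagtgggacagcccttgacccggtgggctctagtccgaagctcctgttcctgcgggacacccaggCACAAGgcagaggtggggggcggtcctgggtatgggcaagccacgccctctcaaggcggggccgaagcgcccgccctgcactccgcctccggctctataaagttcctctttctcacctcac
Irf1 (chr11:53769764-53770013, plus strand): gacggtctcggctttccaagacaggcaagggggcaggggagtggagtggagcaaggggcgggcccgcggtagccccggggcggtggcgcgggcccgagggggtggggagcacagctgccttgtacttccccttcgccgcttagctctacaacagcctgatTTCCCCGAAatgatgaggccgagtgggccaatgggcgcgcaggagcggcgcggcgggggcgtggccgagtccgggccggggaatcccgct

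The motifs were searched on both strands of 300-base windows, 250 bases before and 50 after the start, in which all 8 members had 1 or 2 windows, 11 in all. The STAT site TTCNNNGAA was found at -171 to -163 and again at -153 to -145 before Irf8, and at -90 to -82 before Irf1. It also lay in the Irf2 window, so 3 of 11 member windows held it, against 8.3% of 32851 mouse windows. The Irf4 window held none of it and had 1 match to the HES N-box CACNAG, at -121 to -116. The more downstream windows of Irf8 and Irf1, not shown above, also held the N-box. For Irf8 it lay at -178 to -173 and, after the start, at 12 to 17, and for Irf1 at -134 to -129. That short motif was in 6 of 11 member windows and in 42.5% of all windows, and the HES class C site CACGCG was in 0 of 11 and 9.27%. The IRF element, GAAANN followed by GAAA (3.44% of all windows), and the PU.1-IRF composite, GGAANN followed by GAAA (2.72%), were each found in the Irf2 window alone, at -241 to -232 (gaaaatgaaa) and -247 to -238 (ggaagtgaaa), where they overlap. A match describes letters and not binding.

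Levels below are log2 of the deposited intensities. Differences are log2 Hes1-null means less log2 wild-type means, followed by ± the moderated SE of the fit, with n = 2 arrays in each genotype. The number of arrays limits precision, and an exact permutation test of 2 against 2 arrays could not go below p = 0.333. Array medians ran from 65.0 to 67.3 on the linear scale. The Hes1-null arrays differed more from each other than the wild-type arrays did, with a median gap over all genes of 0.25 against 0.11. Hes1-null replicate 2 also stood apart in Xist, the RNA of the inactive X chromosome. Xist lay at 7.25 there, against 11.7 on Hes1-null replicate 1 and 11.8 or above in wild type. Genes of the Y chromosome were low on every array, that one included. Uty was at 3.32 there and at 3.16 to 3.33 elsewhere, and Kdm5d at 4.07 there and 3.93 to 4.09 elsewhere. Usp9y was at 2.98 there against 2.56 to 2.86, and Eif2s3y at 2.95 against 2.84 to 2.94. The cause of the low Xist level was not tested. Hes1 itself lay at 5.43 and 5.84 on the Hes1-null arrays and at 5.59 and 5.79 on the wild-type arrays, so its level does not check the labels. The labels do not say whether its probe set lies in the deleted part. Results are therefore also given with an array left out where that changes them. Such a fit leaves 1 array of that genotype, which is assumed to vary like the pair of the other genotype, so a fit without a Hes1-null array takes its spread from the closer wild-type pair.

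No IRF gene passed limma's test across all genes (adjusted p under 0.05, Benjamini-Hochberg, 0 of 8 members), a threshold that 0.145% of all genes passed. At an unadjusted p under 0.05 there were 3 members, Irf8 and Irf4 lower and Irf1 higher in Hes1-null marrow, against 8.29% of all genes. The same 3 were the members whose genotypes did not overlap, 3 of 8 beside 38.0% of all genes, which is no excess. Below the wild-type arrays lay 2 members, where all genes gave 20.6%, and above them 1, where all genes gave 17.4%.

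**Figure D1:**
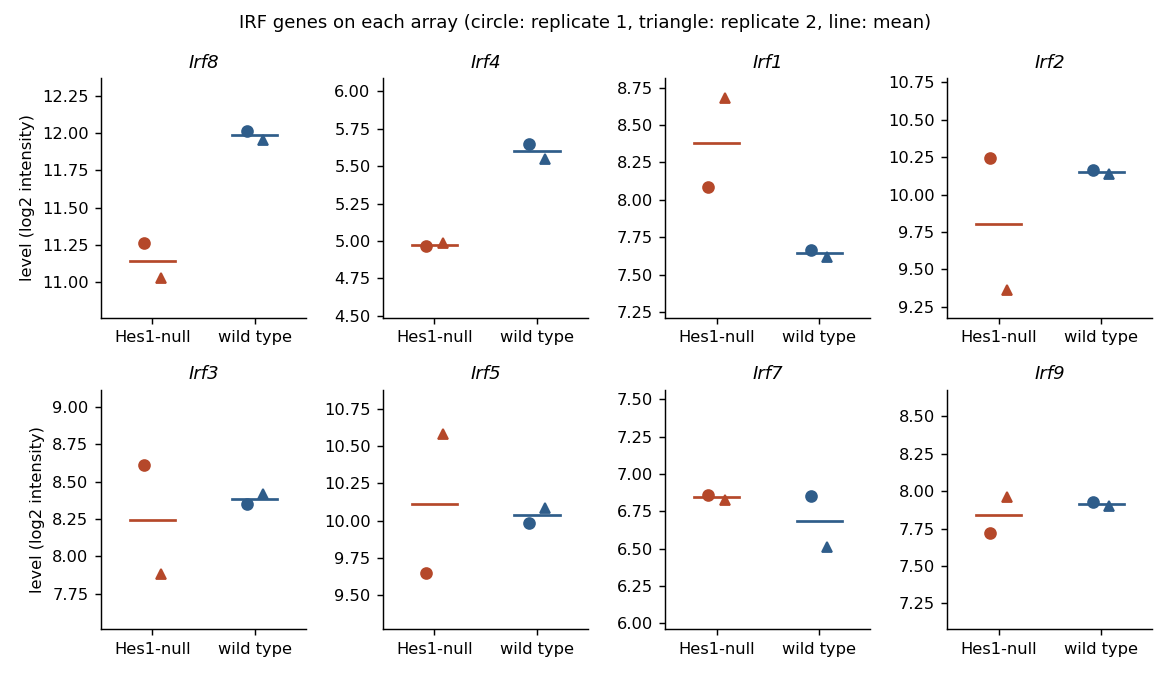
Level of each IRF gene (log2 intensity, vertical axis spanning the same 1.6 units in every panel) on the Hes1-null arrays (left, orange) and wild-type arrays (right, blue), with replicate 1 as a circle, replicate 2 as a triangle and the genotype mean as a line. Irf8 and Irf4 lie lower and Irf1 higher on both Hes1-null arrays, while the Hes1-null points of Irf2, Irf3 and Irf5 lie on either side of wild type.

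Irf8, the regulator of monocyte and dendritic cell fate, lay at 11.26 and 11.03 on the Hes1-null arrays, against 12.01 and 11.95 on the wild-type arrays. Both Hes1-null arrays were below both wild-type arrays, and the gap between genotypes exceeded the gap within either. The difference was -0.84 ± 0.12, or 1.79-fold lower in Hes1-null marrow (95% interval -1.14 to -0.53, unadjusted p = 0.000708, adjusted p = 0.123 by limma). Its unadjusted p ranked 114th among all genes, but the difference did not pass the adjusted threshold. In whole marrow, fewer cells that make Irf8 and less Irf8 RNA per cell cannot be told apart. Without Hes1-null replicate 1 the difference was -0.95 (adjusted p = 0.0381 by limma), in a fit of 1 Hes1-null array with the spread of the wild-type pair that called 5.01% of all genes. A p below the threshold there says nothing of the spread among Hes1-null samples. Without each of the other arrays in turn the adjusted p was between 0.0903 and 0.616.

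Irf4, which directs B cell, plasma cell and dendritic cell programmes and was first known in lymphocytes, lay at 4.96 and 4.99 in Hes1-null marrow, against 5.65 and 5.55 in wild-type marrow. The Hes1-null arrays were almost equal to each other and below both wild-type arrays. The difference was -0.62 ± 0.12, or 1.54-fold lower in Hes1-null marrow (95% interval -0.93 to -0.32, unadjusted p = 0.00303, adjusted p = 0.218 by limma), and did not pass. The values carry no detection calls. Irf4 lay above 4.09, the highest level of 4 Y-linked genes on any array, but background can differ between probe sets and compresses the difference of a dim one.

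Irf1, an activator that interferon gamma induces, lay at 8.08 and 8.68 on the Hes1-null arrays and at 7.67 and 7.62 on the wild-type arrays. Both Hes1-null arrays were above both wild-type arrays, with replicate 2 the higher. The difference was 0.74 ± 0.24, 1.67-fold higher (95% interval 0.13 to 1.35, adjusted p = 0.505 by limma). Leaving out Hes1-null replicate 1 gave 1.04 (adjusted p = 0.0407), and leaving out replicate 2 of that genotype gave 0.44 (adjusted p = 0.226), in both cases with the spread of the wild-type pair alone. Irf1 was the only member with a second probe set, which the annotation ties to 1 transcript record where the first has 8. That probe set did not show the difference: it lay at 5.65 and 6.06 in Hes1-null marrow and at 5.98 and 5.82 in wild-type marrow, -0.05 in difference, and the genotypes overlapped.

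Irf2, the repressor that competes with Irf1 for its sites, lay at 10.24 and 9.36 on the Hes1-null arrays and at 10.16 and 10.14 on the wild-type arrays. Replicate 1 of Hes1-null marrow was above wild type and replicate 2 below it, so the difference of -0.35 ± 0.30 (95% interval -1.10 to 0.41, adjusted p = 0.841) rested on replicate 2. Without Hes1-null replicate 2 the difference was 0.09, and without Hes1-null replicate 1 it was -0.79 (adjusted p = 0.0440 by limma), again with 1 Hes1-null array, the one that stood apart, and the wild-type spread.

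Among the members that pathogen sensing activates, Irf3, present in most cells before any stimulus, lay at 8.61 and 7.88 in Hes1-null marrow and at 8.35 and 8.42 in wild-type marrow. Irf5, a macrophage member acting downstream of Toll-like receptors, lay at 9.65 and 10.58 in Hes1-null marrow and at 9.99 and 10.09 in wild-type marrow. In both genes the Hes1-null arrays lay on either side of wild type, in opposite order, with replicate 2 low for Irf3 and high for Irf5. The differences were -0.14 ± 0.27 for Irf3 (95% interval -0.82 to 0.55) and 0.08 ± 0.32 for Irf5 (95% interval -0.72 to 0.87), and each changed sign without Hes1-null replicate 2, to 0.23 and to -0.39. These 2 genes and Irf2 had gaps between the Hes1-null arrays of 0.73 to 0.93, where only 4.12% to 8.33% of all genes had larger ones, and gaps of at most 0.10 between the wild-type arrays.

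Irf7, the interferon-induced amplifier of interferon production, lay at 6.86 and 6.83 in Hes1-null marrow and at 6.85 and 6.51 in wild-type marrow. It was the member whose wild-type arrays lay farthest apart, by 0.34, and the genotypes overlapped. The difference was 0.16 ± 0.17 (95% interval -0.28 to 0.60). Irf9, the DNA-binding subunit of the type I interferon response complex, lay at 7.72 and 7.96 in Hes1-null marrow and at 7.93 and 7.90 in wild-type marrow, with a difference of -0.07 ± 0.17 (95% interval -0.51 to 0.36). The wild-type arrays of Irf9 lay between the Hes1-null arrays. For these 4 members and Irf2 every interval held 0 and reached at least from -0.28 to 0.36, so differences within that range were not excluded for any of them. That range is not a limit of detection, and larger differences could also have been missed.

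**Figure D2:**
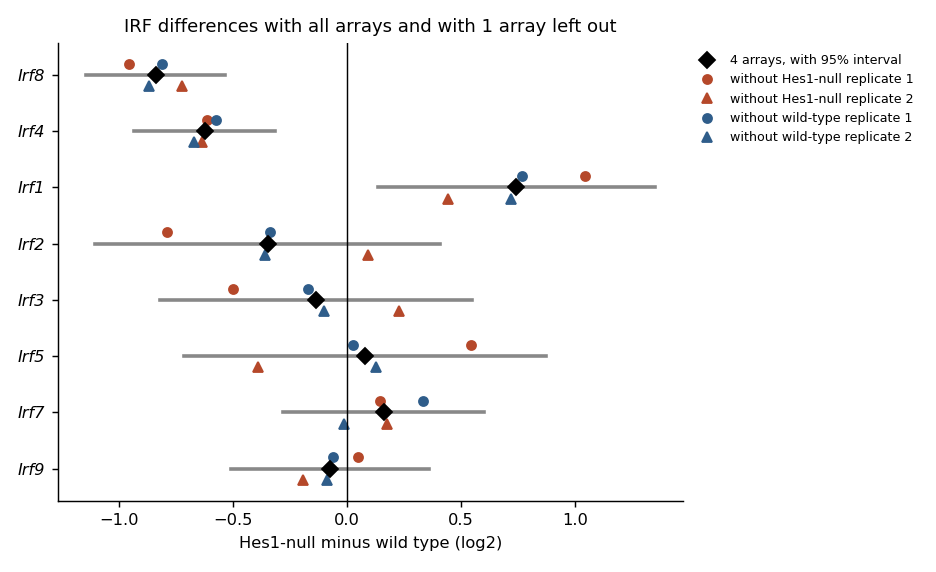
Difference of each IRF gene (Hes1-null minus wild type, log2) over all 4 arrays (black diamond, with its 95% interval as a grey bar) and with 1 array left out (orange: a Hes1-null array left out, blue: a wild-type array left out, circle: replicate 1, triangle: replicate 2). Every value for Irf8 and Irf4 lies below 0, between -0.95 and -0.58, and those of Irf2, Irf3, Irf5, Irf7 and Irf9 lie on both sides of 0.

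Irf8 and Irf4 were then set against the mean of the other 6 members on the same array, a ratio that a shift of the whole array's log2 scale leaves unchanged. The ratio differs in level between probe sets for technical reasons, so its change alone can be read. For Irf8 it was 2.74 and 2.48 on the Hes1-null arrays and 3.52 and 3.51 on the wild-type arrays, a difference of -0.91. For Irf4 it was -3.56 and -3.56 on the Hes1-null arrays and -2.84 and -2.90 on the wild-type arrays, a difference of -0.69. Neither ratio overlapped between genotypes. The mean of the other 6 members lay at 8.53 and 8.55 on the Hes1-null arrays and at 8.49 and 8.45 on the wild-type arrays, 0.07 higher in Hes1-null marrow without overlap, and this shift is part of both ratio differences. The gaps of Irf2 and Irf3 between the Hes1-null arrays ran opposite to those of Irf1 and Irf5 and nearly cancelled in that mean. With the second Irf1 probe set in place of the first, the differences were -0.78 for Irf8 and -0.56 for Irf4. These are smaller in size than the differences of Irf8 and Irf4 alone (-0.84 and -0.62). The mean of the other 6 was then lower, not higher, in Hes1-null marrow, so the direction of its shift depends on the Irf1 probe set. These ratios are descriptions of 2 genes named in the selection and carry no test.

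**Figure D3:**
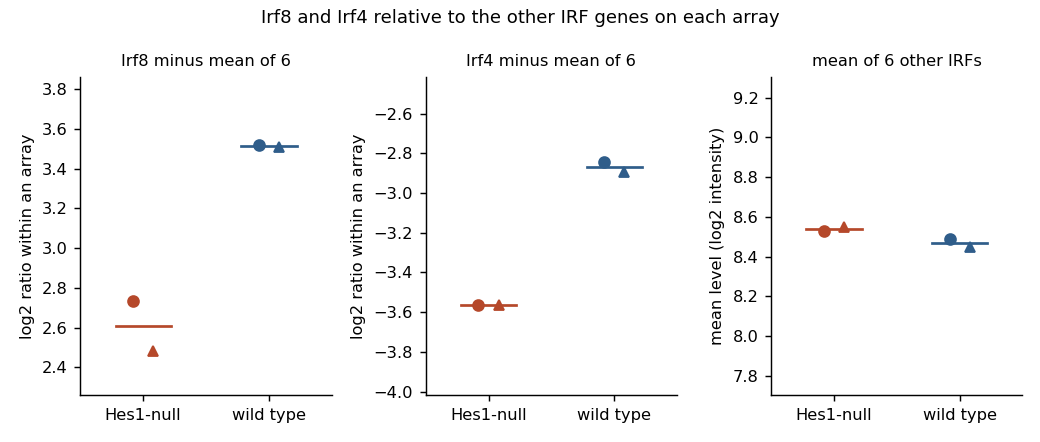
Irf8 (left) and Irf4 (middle) minus the mean of Irf1, Irf2, Irf3, Irf5, Irf7 and Irf9 on the same array (log2), and that mean itself (right, log2 intensity), for Hes1-null (orange) and wild-type (blue) arrays, with circles for replicate 1, triangles for replicate 2, lines for means and axes of equal span. Both ratios lie lower on each Hes1-null array. The mean of the 6, taken with the brighter Irf1 probe set, lies 0.07 higher in Hes1-null marrow, between 8.45 and 8.55 on all arrays.

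Over the 4 arrays, the genes whose centred levels lay nearest to those of Irf8 (Euclidean distance, among 9554 named genes at or above the median level) were Itpripl1, Ptprv, Snx13, Mmp28 and Rap1gds1, at distances of 0.0441 to 0.113. Their differences ran from -0.87 to -0.77. Nearest to Irf4 were Gpr35, Cmpk2, Dip2a, Dusp7 and Fry, at 0.0677 to 0.0845, with differences from -0.65 to -0.56. With 4 arrays such likeness describes the arrays only.

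Cell types of the marrow, among them those that normally make Irf8 and Irf4, were read from marker lists, whose part in the IRF differences was not tested. Monocyte and macrophage markers lay lower in Hes1-null marrow without overlap for 6 of 8 genes (20.6% of all genes did so), with a summed linear level of 10920 on both Hes1-null arrays, against 13730 and 15760 in wild type. They included the chemokine receptor genes Ccr2 (-1.91 ± 0.20) and Cx3cr1 (-2.43 ± 0.30). Cd14 and Ly86 overlapped between genotypes, with differences of 0.39 ± 0.45 and 0.10 ± 0.12. Ly86 was the largest part of every sum, at 5901 and 5173 in Hes1-null marrow and 5571 and 4785 in wild type. Myeloid progenitor and leukemia markers lay lower without overlap for 4 of 7 genes, among them the granule genes Elane (-1.61 ± 0.18) and Prtn3 (-0.80 ± 0.10). Cd34, Hoxa9 and Meis1 overlapped between genotypes, with differences of 0.03 ± 0.19, 0.16 ± 0.16 and 0.30 ± 0.22. The sum of all 7 was 11190 and 15660 in Hes1-null marrow, against 25450 and 25740 in wild type. Neutrophil markers lay lower without overlap for 5 of 8 and higher for 1, Mmp8 (0.95 ± 0.40), 75% beside 38.0% of all genes. Their sums were 6143 and 8769 in Hes1-null marrow against 9945 and 15570 in wild type. Ltf, the lactoferrin gene, passed the test (-2.77 ± 0.23, adjusted p = 0.0398 by limma). None of these 23 markers lay at or below 4.09 on all arrays.

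Dendritic and lymphoid markers did not share one direction. Without overlap, 17.4% of all genes lay higher and 20.6% lower. Of 7 plasmacytoid dendritic markers 4 lay higher and 2 lower without overlap, and their sum of 2340 and 2454 in Hes1-null marrow, against 882 and 1021 in wild type, came mostly from Tcf4 (1.82 ± 0.18, adjusted p = 0.0591), an E protein gene. Siglech, a defining surface gene of those cells, was at 5.89 and 5.99 in Hes1-null marrow and at 5.34 and 5.82 in wild type. Of 8 conventional dendritic markers 2 lay lower and 1 higher (37.5% beside 38.0% of all genes), with sums of 468 and 485 in Hes1-null marrow against 428 and 432 in wild type. B and plasma cell markers lay lower for 2 of 7 and higher for 1 (42.9% beside 38.0%), with sums of 1126 and 1878 in Hes1-null marrow and 1327 and 1461 in wild type. T and NK cell markers lay lower without overlap for 5 of 6 genes, with sums of 237 and 268 in Hes1-null marrow against 314 and 335 in wild type, and the NK gene Klrb1c was at or below 4.09 on every array.

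Partner and antagonist factors of the IRFs gave the only pathway gene that passed the test. Jun, whose AP-1 proteins bind composite sites with Irf4, Irf8 and BATF, rose by 2.70 ± 0.16 in Hes1-null marrow (adjusted p = 0.0231 by limma), with levels of 10.77 and 11.00 on the Hes1-null arrays against 8.24 and 8.13 in wild type. Of 16 measured factors 7 lay higher and 5 lower without overlap, 75.0% beside 38.0% of all genes, and the median difference was 0.12, against -0.02 over all genes. Omitting Hes1-null replicate 2 gave -0.0024, and omitting replicate 1 of that genotype gave 0.21. The lymphoid Ikaros family gene Ikzf3 was at 5.69 and 5.46 in Hes1-null marrow and at 6.71 and 7.16 in wild type (-1.36 ± 0.20, adjusted p = 0.129). Prdm1, a repressor that Irf4 induces in plasma cells, differed by -0.50 ± 0.12, and Bcl6, a repressor that opposes it, by -0.66 ± 0.21. Id2, an inhibitor of E proteins, differed by 0.91 ± 0.26. Among the corepressors that bind Irf2, 0 of 3 passed, and Irf2bpl, Irf2bp1 and Irf2bp2 differed by 0.97 ± 0.42, 0.14 ± 0.18 and 0.0021 ± 0.14.

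Of the sensors and adaptors that lead to Irf3, Irf5 and Irf7, 0 of 20 passed, 7 lay higher and 4 lower without overlap (55% beside 38.0% of all genes), and the median was -0.04. Tmem173, the gene of the DNA-sensing adaptor STING, was at 11.17 and 10.82 in Hes1-null marrow and at 10.26 and 9.63 in wild type (1.05 ± 0.25, adjusted p = 0.309). Mavs, the adaptor of RNA sensing, differed by 0.50 ± 0.19. Tlr4, the endotoxin receptor, differed by -0.45 ± 0.17, and its adaptor Ticam2 by -0.80 ± 0.32. The list's median changed sign with the Hes1-null arrays, 0.10 without replicate 1 and -0.11 without replicate 2.

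Interferons, their receptors and JAK-STAT genes had 0 of 19 passing, 3 higher and 4 lower without overlap (36.8% beside 38.0% of all genes), and a median of -0.08. Ifngr1, the ligand-binding chain of the interferon gamma receptor, was at 12.00 and 11.92 in Hes1-null marrow and at 11.68 and 11.70 in wild type (0.27 ± 0.09). Usp18, which restrains the type I receptor, differed by -0.40 ± 0.12, and Ifnb1, the interferon beta gene, by -0.28 ± 0.15 at a dim level. Ifnk did not exceed 4.09 on any array. This list's median was 0.08 without Hes1-null replicate 1 and -0.21 without replicate 2.

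Interferon-stimulated genes, the output of the pathway, were near the background: 0 of 28 passed, 11 lay without overlap (39.3% beside 38.0%), 3 higher and 8 lower, and the median was -0.03. Its sign changed to 0.0034 after centring the arrays, 0.0028 with dimmer genes (below the median level) removed and 0.034 with wild-type replicate 1 omitted. Tap1, the peptide transporter gene of antigen presentation, was at 9.63 and 9.72 in Hes1-null marrow and at 8.98 and 8.70 in wild type (0.84 ± 0.17, adjusted p = 0.243 by limma). Cmpk2 and the antiviral GTPase gene Mx1 differed by -0.62 ± 0.16 and -0.49 ± 0.14. The chemokine gene Cxcl10 was at 6.03 and 6.09 in Hes1-null marrow and at 6.74 and 6.43 in wild type (-0.53 ± 0.16).

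Genes known to act downstream of Irf8 had 0 of 11 passing, with 6 lower and 1 higher without overlap (63.6% beside 38.0%) and a median of -0.20. The list mixes genes that Irf8 induces and represses, so neither the counts nor the median give a direction for Irf8 output. That median was -0.36 without Hes1-null replicate 2, -0.18 without Hes1-null replicate 1 and -0.15 after quantile normalization. Klf4, a monocyte transcription factor gene that Irf8 induces, was at 8.18 and 8.80 in Hes1-null marrow and at 9.65 and 9.14 in wild type (-0.91 ± 0.29, adjusted p = 0.483). The acid ceramidase gene Asah1, which Irf8 represses, lay in the same direction (-0.55 ± 0.17), as did Cst3 (-0.30 ± 0.10), the cystatin C gene that dendritic cells express strongly. Id2 was the gene above wild type without overlap. Of 11 genes listed as downstream of Irf4, 0 passed, 3 lay lower and 1 higher without overlap (36.4% beside 38.0%), and the median was -0.13. It became -0.016 when wild-type replicate 2 was omitted and -0.24 when Hes1-null replicate 2 was, and the 4 genes at or above the median level had a median of 0.014. Chil3 and Mrc1, genes of alternatively activated macrophages, differed by -1.35 ± 0.47 and -0.51 ± 0.12. The histone demethylase gene Kdm6b, whose place downstream of Irf4 was not checked here, was the gene above wild type without overlap (0.59 ± 0.26).

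**Figure D4:**
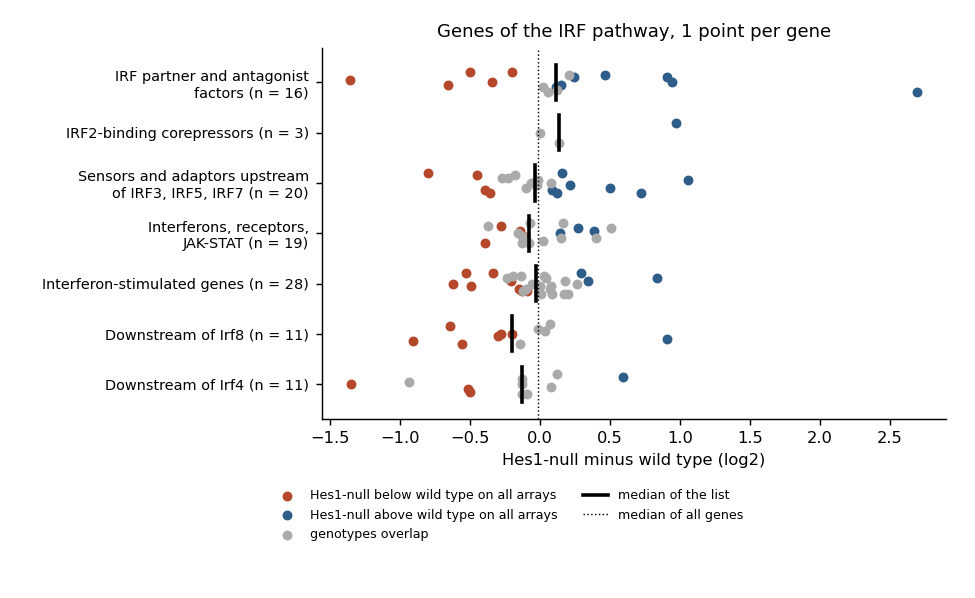
Difference of each measured gene (Hes1-null minus wild type, log2) in 7 lists around the IRF family, 1 point per gene, coloured by whether the Hes1-null arrays lay below (orange) or above (blue) both wild-type arrays or overlapped them (grey), with the list's median as a bar and the median of all genes dotted. Jun at 2.70 stands apart, and the list medians lie between -0.20 and 0.14.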

How the data were processed

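Whole-marrow RNA was measured on 1 Affymetrix mouse array per sample. Per the submitters' processing notes, the deposited intensities come from Affymetrix Expression Console with RMA. Versions and genome build are not given in the sources used here. They are on a linear scale, so log2 was taken here with nothing added. RMA scaling equalises arrays, so a change in total RNA would not show. Of 35556 probe sets, 21789 carry 1 gene symbol, and the brightest stood for each of 19938 genes. Genotypes came from the labels. The test was limma 3.58.1 in R 4.3.3 (intensity trend, two-sided, 2 residual and 3.41 prior degrees of freedom, Benjamini-Hochberg over all genes). It was also run on simulated data with effects larger than the IRF differences and equal spread in both genotypes. That run does not bear on the IRF differences. The 8 members, the gene lists, the motifs and the tests were chosen with earlier results of these data known. Named genes are the members, called list genes, up to 4 more per list by smallest unadjusted p, and 5 nearest patterns each for Irf8 and Irf4. Others named (Siglech, Klrb1c, Cd34, Hoxa9, Meis1, Cd14, Ly86, Mmp8) were chosen after their values were seen, and Hes1, Xist and the Y-linked genes were checks. In some lists, genes without a probe set of that symbol alone were not used. Of the sample columns, 0 were left out. Alternatives covered scaling, filters, moderation, probe sets, an offset and each array left out.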

Additional observations from a re-analysis of the deposited data

How the results depend on the processing

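Irf8 stayed lower in all 14 alternatives and Irf4 in all 13, where the median-level filter removes Irf4. Neither passed except Irf8 without Hes1-null replicate 1, where 1 Hes1-null array is assumed to vary like the wild-type pair, and with 1 array left out they ranged from -0.95 to -0.72 and from -0.67 to -0.58. The members called ranged from 0 to 3 with an array left out and were 0 in the others. The number of calls over all genes was 29. Restricting the genes by level gave 17 (25th percentile and above) and 5 (median and above). The number was 45 with array weights, and between 6 and 999 with 1 array left out, with 6 when wild-type replicate 2 was omitted, 15 when Hes1-null replicate 2 was, and 999 when Hes1-null replicate 1 was. The genotype difference in the ratio of Irf4 to the other members was -0.67 after quantile normalization, -0.63 with probe sets averaged per gene, -0.50 with 16 added before log2, and -0.56 with the other Irf1 probe set, chosen after seeing the data. That of Irf8 was -0.78 with that probe set. Leaving out arrays gave -0.72 to -0.67 for Irf4 and -1.03 to -0.78 for Irf8. Directions reversed for Irf1 with its other probe set (-0.046), for Irf2, Irf3 and Irf5 without Hes1-null replicate 2 (0.093, 0.23 and -0.39), for Irf9 without Hes1-null replicate 1 (0.046) and for Irf7 without wild-type replicate 2 (-0.011). With an array left out, the ranges were -0.79 to 0.093 for Irf2, -0.50 to 0.23 for Irf3, -0.39 to 0.54 for Irf5, -0.011 to 0.33 for Irf7 and -0.19 to 0.046 for Irf9. The cause was not tested.

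The labels number replicates alike in both genotypes without saying what a number shares. Deviations of same-numbered arrays correlated at 0.05 across genes. With the replicate number as a block, 89 genes and 0 members were called, and Irf8 and Irf4 had adjusted p-values of 0.0806 and 0.260 by limma.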
